A study of Mus musculus with 36 samples.

Results

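The expression of 10 genes of radial glia and neural stem cells, *Sox1*, *Sox2*, *Sox3*, *Sox9*, *Nes*, *Vim*, *Fabp7*, *Slc1a3*, *Prom1* and *Hmga2*, was followed in the embryonic mouse forebrain with reduced levels of the chromatin remodeller CHD8. They were chosen by name, as genes known to mark or maintain these cells, and are 10 of the 46603 genes counted. All 10 matched exactly 1 gene of both count tables, and all 10 passed the filter on low counts in every comparison. The study asked how stepwise loss of *Chd8*, a gene whose heterozygous loss causes autism with macrocephaly, changes transcription in the developing cortex. All mice were C57Bl/6J. At E12.5 the neocortex of a single embryo gave each library, with 3 libraries of each of 4 genotypes. *Chd8*+/+ embryos served as wildtype controls, and *Chd8*+/- embryos carried 1 null allele, made by germline deletion of exon 3, with the deleting Cre bred out. *Chd8* neo/neo embryos (mild hypomorphs) carried a neo selection cassette 3′ of exon 3 on both alleles, and *Chd8* neo/- embryos (severe hypomorphs) carried 1 neo and 1 null allele. At E10.5 each library pooled the RNA of 2 embryos, with 3 pools of cKO embryos, labelled sox1-Cre; Chd8f/f, in which Cre driven by *Sox1* deletes the floxed exon 3 in the early neural lineage, and 3 pools of Ctrl embryos, which carried floxed *Chd8* alleles (Chd8f/f or Chd8 f/+) and no Cre in their labels. Replicates came from different litters according to the study's methods.

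Radial glia are the stem cells of the embryonic cortex: they line the ventricle, span the cortical wall with a long process, and divide to renew themselves or to give neurons and intermediate progenitors. They arise from neuroepithelial cells, and the switch is marked by a rise of glial genes such as *Fabp7* and *Slc1a3* and a fall of early growth genes such as *Hmga2*. SOX transcription factors of the SOXB1 group (*Sox1*, *Sox2* and *Sox3*) keep neural progenitors undifferentiated, and *Sox9* supports neural stem cell maintenance and later gliogenesis.

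*Chd8* itself was checked first. Its level, in normalised counts (CPM, TMM-scaled counts relative to library size), was 237, 235 and 239 in the *Chd8*+/+ libraries, 165, 170.2 and 165 in *Chd8*+/-, 213, 203 and 211 in the mild hypomorph and 158, 147 and 142 in the severe hypomorph. At E10.5 it was 160.01, 168 and 184 CPM in Ctrl and 120.5, 125 and 116 CPM in cKO. Every mutant library lay below every control library of its stage. Counts over the whole gene do not separate normal transcripts from those that end in the neo cassette or lack exon 3, so these values do not give the loss of function. Library depth was 38774591 to 61051667 counts at E12.5 and 49632937 to 68488879 at E10.5. By *Xist*, *Chd8*+/+ replicate 3, *Chd8*+/- replicate 1 and *Chd8* neo/neo replicates 1 and 2 were female, and the other E12.5 libraries male. At E10.5, Ctrl pools 1 and 3 were female, Ctrl pool 2 was male, and the 3 cKO pools held both sexes. Some libraries stood apart within their group: *Chd8* neo/neo replicate 3 from the other *Chd8* neo/neo libraries in *Hmga2* and *Slc1a3*, and Ctrl pool 2 from the other Ctrl pools in *Vim* and in neuron markers. Dorsal telencephalon markers were present in all E12.5 libraries (sum of 7 genes 1029.7 to 1148 CPM in *Chd8*+/+), and so were markers of the ventral telencephalon (671 to 733 CPM). The dorsal sum was 1171 to 1308 CPM in *Chd8* neo/neo, above every *Chd8*+/+ library. It overlapped with *Chd8*+/+ in *Chd8*+/- (956 to 1170 CPM) and *Chd8* neo/- (1048 to 1242 CPM). The ventral sum in *Chd8* neo/neo, 576 to 700 CPM, overlapped as well. The part of regional make-up in the differences below was not tested.

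Levels were compared between genes per kilobase of exon (normalised CPM per kb). The length used was that of all exons annotated for a gene, and the expressed transcript may be shorter. How far the order of the genes depends on this length was not tested. In *Chd8*+/+ neocortex at E12.5 the intermediate filament gene *Vim* (239 ± 13.8 CPM per kb, mean ± SD, n = 3) was highest, followed by the brain fatty acid binding protein gene *Fabp7* (192 ± 16.4), the intermediate filament gene *Nes* (132 ± 8.63), *Sox2* (108 ± 9.23) and *Hmga2* (58.5 ± 8.29). Each of these 5 was separated from the next by a gap between all libraries. *Sox9* (30.4 ± 4.13), *Sox1* (28.1 ± 3.50) and *Sox3* (27.5 ± 3.68) overlapped, then came *Prom1* (18.9 ± 0.427) and the glutamate transporter gene *Slc1a3* (11.9 ± 0.533). In the Ctrl pools at E10.5, scaled within that table, the order was different: *Vim* (199 ± 33.3) and *Hmga2* (190.3 ± 7.71) led and overlapped, *Sox2* (101 ± 1.07) and *Nes* (78.6 ± 4.59) followed, *Fabp7* (31.2 ± 7.87) lay level with *Sox3* (30.4 ± 1.83), and *Slc1a3* (3.73 ± 0.528) was again last. *Prom1* (22.5 ± 1.73), *Sox1* (21.04 ± 1.27) and *Sox9* (19.2 ± 0.984) lay between *Sox3* and *Slc1a3*, each overlapping with the next of these 3.

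In *Chd8* neo/neo neocortex, *Sox2* rose and the other 9 genes did not pass the test. By edgeR, at an adjusted p under 0.05, 1 of 10 genes was called, against 8.16% of all 18810 genes tested (higher, 3.71%), so that the share of the 10 was near the background. At an unadjusted p under 0.05 there were 4 of the 10, against 4746 of all 18810 genes. *Sox2* (ENSMUSG00000074637, chr3:34650405-34652461, + strand, GRCm38), a transcription factor at the centre of neural stem cell identity, was at 235, 201 and 232 CPM in the *Chd8*+/+ libraries, replicates 1 to 3. The *Chd8* neo/neo libraries were at 274.4, 291 and 249 CPM. Each lay above every *Chd8*+/+ library, a rise of 21.9% (log2 fold change 0.29, SE 0.0694, adjusted p = 0.0251, 95% confidence interval 0.14 to 0.43, edgeR). The call was lost without *Chd8*+/+ replicate 2, the lowest library (log2 fold change 0.22, adjusted p = 0.0879), without *Chd8* neo/neo replicate 1 or 2, and with only these 2 groups in the fit (log2 fold change 0.29, adjusted p = 0.0704). In these bulk samples, fewer or more stem cells and less or more RNA per cell cannot be told apart.

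*Sox3* (ENSMUSG00000045179, chrX:60891366-60893430, - strand), the X-linked gene of the SOXB1 group, was at 57.7, 48.7 and 63.8 CPM in the *Chd8*+/+ libraries. In the mild hypomorph it was at 71.2, 77.6 and 70.8 CPM, and the groups did not overlap. The difference missed the threshold in edgeR (log2 fold change 0.37, SE 0.109, adjusted p = 0.0615) and passed it in DESeq2 (log2 fold change 0.37, adjusted p = 0.00758), the 1 gene besides *Sox2* that DESeq2 called. *Sox1* (ENSMUSG00000096014, chr8:12395295-12400126, + strand), a marker of the neural plate and its progenitors, was at 135, 119 and 153 CPM in wildtype and 150.5, 164 and 147 CPM in the mild hypomorph. The groups overlapped through *Chd8*+/+ replicate 3 (log2 fold change 0.18, SE 0.0775, adjusted p = 0.168, edgeR). *Sox9* (ENSMUSG00000000567, chr11:112782224-112787760, + strand) was at 123, 109.8 and 144 CPM in wildtype and 143, 148 and 126 CPM in the mild hypomorph, with overlap (log2 fold change 0.15, SE 0.0918, adjusted p = 0.353, edgeR). The fitted difference of all 4 SOX genes was above 0 in edgeR and in each other setting tried for all 4 in this comparison, but only that of *Sox2* passed the test in edgeR.

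Markers of other cells and the sex of the embryos moved with the same groups. In *Chd8* neo/neo, 3 of 12 neuron markers fell and none rose (background of lower calls 4.45%), and their summed level was 3503 to 4091 CPM against 4252 to 5006 CPM in *Chd8*+/+, without overlap. In *Chd8* neo/-, where no SOX gene of the 10 was called, 2 of 12 neuron markers fell (background 5.99%). Their summed level there was 3868 to 4334 CPM and overlapped with *Chd8*+/+. The number of neuron markers called in *Chd8* neo/neo went from 3 to 7 with *Chd8* neo/neo replicate 3 left out. That in *Chd8* neo/- went from 2 to 0 with *Chd8*+/+ replicate 2 or *Chd8* neo/- replicate 1 or 2 left out, and to 1 with *Chd8*+/- replicate 3, *Chd8*+/+ replicate 3 or *Chd8* neo/- replicate 3 left out. Calls over all genes moved too with each library left out, from 435 to 2605 in *Chd8* neo/neo and from 1015 to 2574 in *Chd8* neo/-. The part of neurons in the *Sox2* difference was not tested. With *Xist* as a covariate for sex, *Sox2* kept its call (log2 fold change 0.25, adjusted p = 0.0463, edgeR), and *Sox3* was at a log2 fold change of 0.32 (adjusted p = 0.0938). In the 8 libraries with low *Xist*, which leave 1 *Chd8* neo/neo library, none of the 10 genes was called by edgeR.

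The genes of the radial fibre and the apical membrane did not pass the test in *Chd8* neo/neo. *Nes* (ENSMUSG00000004891, chr3:87971078-87980451, + strand), which encodes the intermediate filament protein nestin, was at 822, 804 and 908 CPM in wildtype and 928, 981 and 784 CPM in the mild hypomorph. *Vim* (ENSMUSG00000026728, chr2:13573927-13582826, + strand), which encodes vimentin, was at 1059, 1178 and 1165 CPM in wildtype and 1219.7, 1254 and 1040.2 CPM in the mild hypomorph. In both genes *Chd8* neo/neo replicate 3 was the lowest of these 6 libraries and replicate 2 the highest, so that the groups overlapped (95% confidence interval of the log2 fold change -0.091 to 0.27 for *Nes* and -0.093 to 0.19 for *Vim*). *Prom1* (ENSMUSG00000029086, chr5:43993620-44102032, - strand), which encodes the apical membrane protein prominin 1 (CD133), was at 132, 137 and 137 CPM in wildtype and 143, 139.8 and 129 CPM in the mild hypomorph, also with overlap. Its interval was the narrowest of the 10 (-0.066 to 0.11). Of its exon length, 5.91% is shared with a gene on the opposite strand, *Gm16401*. Reads over these bases cannot be assigned by strand in counts made without strand. Opposite-strand genes also shared 2.07% of the exon length of *Hmga2* and 5.12% of that of *Chd8*.

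*Fabp7* and *Slc1a3*, which mark the maturation of neuroepithelium into radial glia, had fitted values below *Chd8*+/+ in *Chd8* neo/neo, and *Hmga2* one above it, with none past the threshold. *Fabp7* (ENSMUSG00000019874, chr10:57784881-57788450, + strand), which encodes a fatty acid binding protein, was at 221, 261 and 238 CPM in wildtype and 196, 208 and 249 CPM in the mild hypomorph (log2 fold change -0.14, SE 0.0915, adjusted p = 0.378, edgeR). *Slc1a3* (ENSMUSG00000005360, chr15:8634124-8710764, - strand), which encodes the glutamate transporter GLAST, was at 96.4, 105 and 104 CPM in wildtype and 86.8, 73.6 and 100.02 CPM in the mild hypomorph (log2 fold change -0.23, SE 0.0917, adjusted p = 0.145, edgeR). *Hmga2* (ENSMUSG00000056758, chr10:120361275-120476469, - strand), which encodes a chromatin protein of young neural stem cells, was at 414, 333 and 442 CPM in wildtype and 622, 633 and 360.01 CPM in the mild hypomorph (log2 fold change 0.44, SE 0.207, adjusted p = 0.225, edgeR). In all 3 genes *Chd8* neo/neo replicates 1 and 2 lay outside the range of *Chd8*+/+ and replicate 3 inside it. *Hmga2* had the widest spread within genotypes of the 10 genes, and replicates 1 and 2 exceeded all 10 other E12.5 libraries. Without replicate 3 the test was passed by *Hmga2* (log2 fold change 0.65, adjusted p = 0.00774) and *Slc1a3* (log2 fold change -0.35, adjusted p = 0.00952) and not by *Fabp7* (log2 fold change -0.25, adjusted p = 0.0517). Over all genes tested, calls in this comparison ranged from 435 to 2605 with each E12.5 library left out in turn, against 1534 with all (edgeR). Replicates 1 and 2 are also the female *Chd8* neo/neo embryos. In the female *Chd8*+/+ and *Chd8*+/- embryos *Hmga2* was at 442 and 332 CPM, and its difference with *Xist* as a covariate was 0.32 (adjusted p = 0.39, edgeR).

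**Figure D1:**
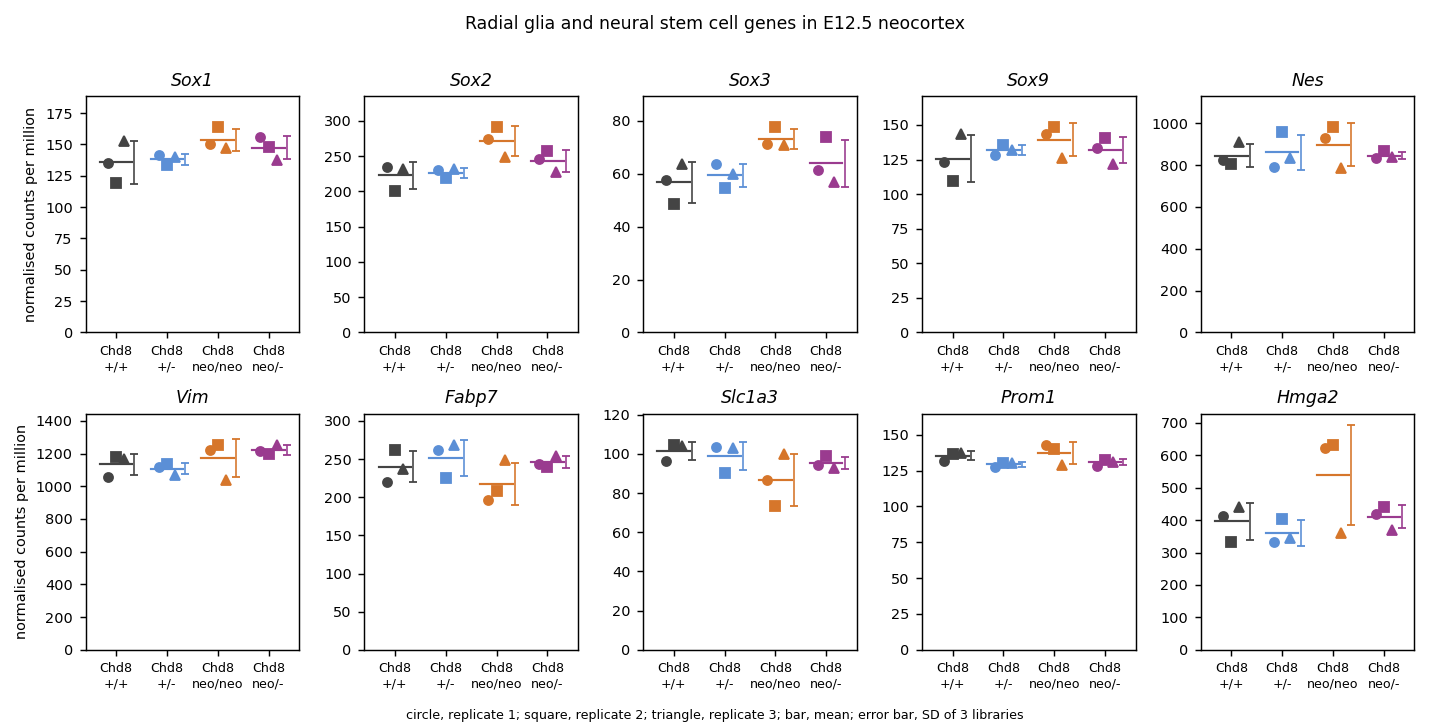
Normalised counts (CPM) of the 10 genes in each E12.5 library, by genotype (points, 3 embryos per genotype with their replicate number as the marker; bars, mean; error bars, SD; each axis starts at 0). *Sox2* was higher in all *Chd8* neo/neo than in all *Chd8*+/+ libraries, and *Hmga2* reached 622 and 633 CPM in *Chd8* neo/neo replicates 1 and 2 but 360.01 CPM in replicate 3.

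Genes known beside *Hmga2* in young progenitors, 11 in all, were read with it: RNA-binding proteins of the LIN28 and IGF2BP families, chromatin proteins and *Mycn*. In *Chd8* neo/neo 1 of 11 rose, against 3.71% of all genes, and none fell (median log2 fold change 0.21, against 0.0053 over all genes tested). The gene called was *Mycn*, a proto-oncogene of proliferating progenitors, at 106, 95.8 and 96.4 CPM in wildtype and 122, 121 and 111 CPM in the mild hypomorph, without overlap (log2 fold change 0.25, adjusted p = 0.0372, edgeR). Among the 11 genes the number called went from 1 to 0 with *Chd8*+/+ replicate 2 or 3, *Chd8* neo/- replicate 1 or *Chd8* neo/neo replicate 1 or 2 left out, and to 3 with *Chd8* neo/neo replicate 3 left out. *Lin28b*, which encodes a protein that blocks the maturation of let-7 microRNAs, was at 28.4, 25.3 and 26.02 CPM in wildtype and 28.4, 36.5 and 22.3 CPM in the mild hypomorph (log2 fold change 0.13, adjusted p = 0.747). *Igf2bp2*, an RNA-binding protein gene known as a target of HMGA2, was at 219, 192 and 226 CPM in wildtype and 265, 271 and 213 CPM in the mild hypomorph (log2 fold change 0.23, adjusted p = 0.136). *Igf2bp2* was highest in *Chd8* neo/neo replicates 1 and 2, as *Hmga2* was, and *Lin28b* was highest in replicate 2. *Lin28a* (2.81, 5.06 and 1.11 CPM) and *Trim71* (5.15, 8.06 and 3.71 CPM) were low and had the same order of the 3 *Chd8* neo/neo libraries as *Hmga2*, with replicate 3 lowest. In *Chd8*+/+ they were at 2.52, 1.25 and 2.25 CPM and at 4.38, 2.74 and 3.44 CPM. Libraries of other genotypes varied too: *Chd8*+/- replicate 2 was at 3.14 CPM for *Lin28a*, 5.37 CPM for *Trim71* and 32.7 CPM for *Lin28b*, each above *Chd8* neo/neo replicate 1. In *Chd8*+/- none of the 11 was called by edgeR (0 at an unadjusted p under 0.05, 0 by DESeq2), nor in *Chd8* neo/- (2 at an unadjusted p under 0.05, 1 by DESeq2).

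**Figure D2:**
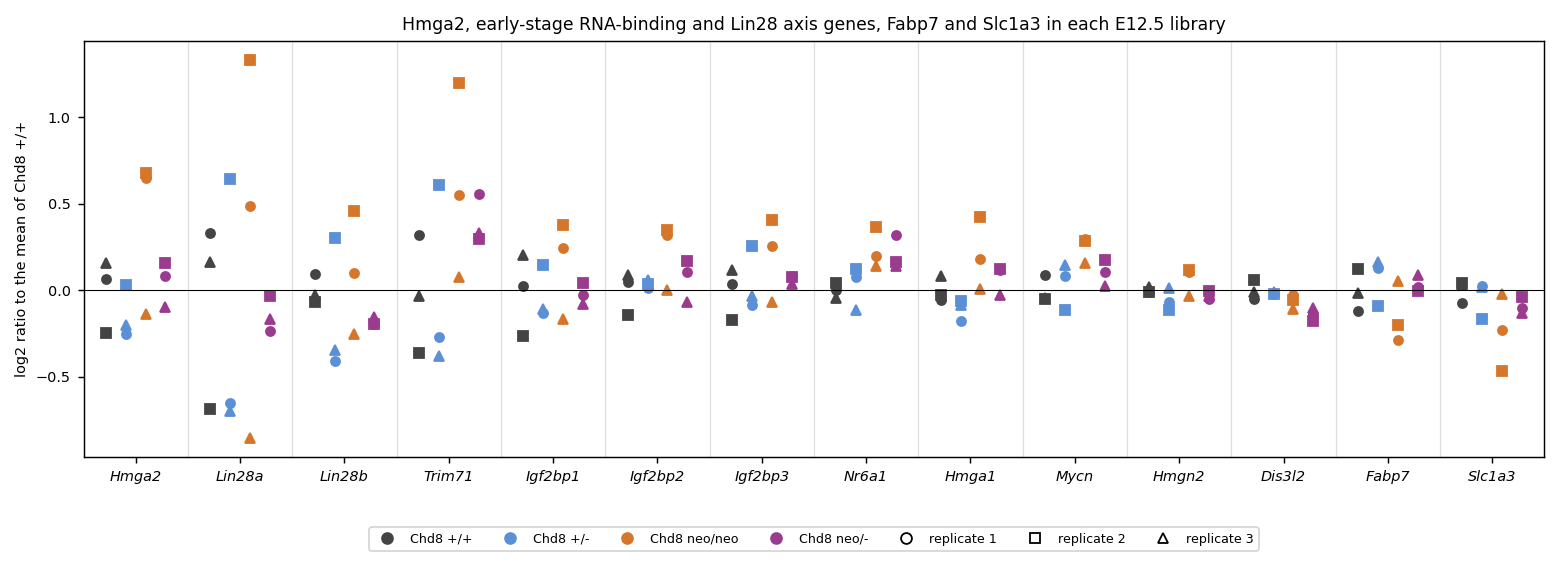
Log2 ratio of each E12.5 library to the mean of the 3 *Chd8*+/+ libraries for *Hmga2*, the 11 genes of the early-stage list, *Fabp7* and *Slc1a3* (colours, genotype; markers, replicate number). *Chd8* neo/neo replicates 1 and 2 lay above 0 for *Hmga2* and 10 of the 11 genes and below 0 for *Dis3l2*, *Fabp7* and *Slc1a3*, while replicate 3 lay nearer to *Chd8*+/+ for *Hmga2*, *Fabp7* and *Slc1a3*.

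*Hmga2* and *Lin28b* are textbook parts of the let-7 pathway, so the letters that let-7 microRNAs would pair with are shown. The mature mouse let-7 sequences of RefSeq (GRCm38.p6) share their seed, bases 2 to 8, in capitals here, with 1 exception, let-7j.
let-7a-5p: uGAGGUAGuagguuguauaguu
let-7i-5p: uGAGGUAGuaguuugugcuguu
let-7j: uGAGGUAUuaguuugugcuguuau
The reverse complement of the shared seed, CTACCTC, occurred 4 times in the annotated 3′ untranslated region of *Hmga2* (3014 bases, GENCODE vM21, GRCm38, - strand). Each match is shown 5′ to 3′ on the transcript, with the matching letters in capitals.
chr10:120364224-120364245: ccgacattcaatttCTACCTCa
chr10:120362987-120363008: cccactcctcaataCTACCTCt
chr10:120362549-120362570: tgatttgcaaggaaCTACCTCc
chr10:120361691-120361712: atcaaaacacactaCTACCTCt
Of 20954 genes with such a region, 1845 held the heptamer at least once. Among the 2736 whose region is at least as long as that of *Hmga2*, 25.1% held it and 8 genes held it 4 times or more. The other 9 genes of the group had no match. In the early-stage list the counts of matches were 8 in *Nr6a1*, 4 each in *Lin28b*, *Igf2bp1* and *Trim71*, 2 in *Lin28a*, 1 each in *Hmga1*, *Igf2bp2* and *Igf2bp3*, and none in *Mycn*, *Dis3l2* and *Hmgn2*. The matches describe letters, and microRNAs were not measured in these libraries.

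In *Chd8*+/- neocortex none of the 10 genes was called by edgeR or DESeq2 and none had an unadjusted p under 0.05, against 0.0213% of all genes called by edgeR and 6.33% at that unadjusted p. *Sox2* was at 229.96, 218 and 232 CPM, within the range of *Chd8*+/+ given above (95% confidence interval of the log2 fold change -0.12 to 0.17). *Hmga2* was at 332, 404 and 345 CPM and had the widest interval (-0.61 to 0.33). *Prom1* was at 127, 130.4 and 130.4 CPM, each library below the 3 *Chd8*+/+ libraries, with a difference that did not pass the test (log2 fold change -0.064, SE 0.0407, adjusted p = 0.853, edgeR). The other 7 genes had fitted log2 fold changes from -0.039 for *Slc1a3* to 0.071 for *Fabp7*. *Fabp7* was at 262, 225 and 269 CPM and *Slc1a3* at 103, 90.5 and 103 CPM, both with *Chd8*+/- replicate 2 lowest. That library also had the highest sum of mesenchyme and meninges markers of all E12.5 libraries (sums in *Chd8*+/- 593 to 1218 CPM, in *Chd8*+/+ 699.8 to 884 CPM).

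In *Chd8* neo/-, the genotype with the lowest *Chd8* level, edgeR and DESeq2 called none of the 10 genes and none had an unadjusted p under 0.05, against 11.5% of all genes called by edgeR and 26.5% at that unadjusted p. *Sox2* was at 245, 258 and 227 CPM and overlapped with *Chd8*+/+ (log2 fold change 0.13, SE 0.0694, adjusted p = 0.261, 95% confidence interval -0.02 to 0.28, edgeR). *Sox3* was at 61.3, 73.9 and 56.8 CPM and *Sox1* at 156, 148 and 138 CPM, and both overlapped with *Chd8*+/+. *Hmga2* was at 419, 441 and 371 CPM, inside the range of *Chd8*+/+, with an interval of -0.42 to 0.52. *Vim* was at 1218, 1194 and 1251 CPM, each library above the 3 *Chd8*+/+ libraries, by a difference that did not pass the test (log2 fold change 0.11, SE 0.0656, adjusted p = 0.329, edgeR). The intervals were -0.16 to 0.23 for *Fabp7*, -0.29 to 0.11 for *Slc1a3*, -0.18 to 0.18 for *Nes*, -0.13 to 0.27 for *Sox9* and -0.14 to 0.038 for *Prom1*. The 3 comparisons with *Chd8*+/+ share its libraries.

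The mutant genotypes were then compared directly. Between *Chd8* neo/neo and *Chd8*+/-, edgeR called 1 of 10 genes, against 5.28% of all genes: *Sox2*, whose 3 *Chd8* neo/neo libraries all lay above the 3 *Chd8*+/- libraries (log2 fold change 0.26, SE 0.0694, adjusted p = 0.0457). Deviations of same-numbered libraries of these 2 genotypes were weakly correlated (r = 0.108, 0.195 and 0.199). The study's methods give different crosses for them, so a shared number does not mean a shared litter, and replicates 1 and 3 also matched in sex. With the replicate number as a block the call was lost (log2 fold change 0.26, adjusted p = 0.0722, edgeR), as it was with *Xist* as a covariate (log2 fold change 0.22, adjusted p = 0.0887). It was also lost without any 1 of 10 of the 12 libraries (adjusted p = 0.0503 to 0.167), those of other genotypes included, which enter through the shared estimate of the spread. DESeq2 called *Sox3* and *Hmga2* as well, and 1788 genes in all, against 994 by edgeR. At an unadjusted p under 0.05 there were 4 of the 10, against 4369 of all 18810 genes (edgeR). *Hmga2* had the widest difference in edgeR (log2 fold change 0.58, SE 0.207, adjusted p = 0.136). Without *Chd8* neo/neo replicate 3, edgeR called *Hmga2* (log2 fold change 0.79, adjusted p = 0.00445), *Slc1a3* (log2 fold change -0.31, adjusted p = 0.0194) and *Fabp7* (log2 fold change -0.32, adjusted p = 0.0212) beside *Sox2*. Calls over all genes in this comparison ranged from 23 to 2100 with each E12.5 library left out in turn, against 994 with all (edgeR).

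Between *Chd8* neo/- and *Chd8* neo/neo neither edgeR nor DESeq2 called any of the 10 genes, against 0.0159% of all genes called by edgeR. An unadjusted p under 0.05 was found for 1 of the 10 and for 8.43% of all genes, so that the 10 were near the background. This gene was *Sox2* (log2 fold change -0.16, SE 0.0693, adjusted p = 0.58, edgeR). *Sox2* passed the test against wildtype in the mild hypomorph only, and its difference between both hypomorphs did not pass. Between *Chd8* neo/- and *Chd8*+/- neither tool called any, against 5.43% of all genes called by edgeR. At an unadjusted p under 0.05 there was 1 of the 10, *Vim*, against 22.5% of all genes (log2 fold change 0.14, SE 0.0656, adjusted p = 0.219, edgeR).

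Further radial glia genes, 28 in all, were counted in the same way. In *Chd8* neo/neo, 1 of 28 rose, a share near the 3.71% of all genes that did, and none fell (median log2 fold change 0.09). It was *Pax6*, the transcription factor that specifies cortical radial glia, at 162, 148 and 155 CPM in wildtype and 185, 176 and 170.3 CPM in the mild hypomorph, without overlap (log2 fold change 0.19, adjusted p = 0.0199, edgeR). An unadjusted p under 0.05 was found for 11 of the 28, against 4746 of all 18810 genes (edgeR), and DESeq2 called 5 of the 28. Calls over all genes under the other settings, DESeq2 among them, ranged from 430 to 2285. The summed level of the 28 was 4809 to 5156 CPM in *Chd8* neo/neo and 4398 to 4793 CPM in *Chd8*+/+, without overlap. The sums in *Chd8*+/- (4513 to 4832 CPM) and *Chd8* neo/- (4490 to 4901 CPM) overlapped with *Chd8*+/+. Among the 28 genes the number called went from 1 to 0 with *Chd8*+/+ replicate 2 or *Chd8* neo/neo replicate 1 or 2 left out, and to 6 with *Chd8* neo/neo replicate 3 left out. With each library left out, calls over all genes in *Chd8* neo/neo ranged from 435 to 2605. In *Chd8* neo/-, 1 of 28 rose, a share below the 5.48% of all genes that did, and none fell (median 0.014). It was *Mfge8*, a secreted protein that binds phosphatidylserine, at 33.1, 34.2 and 35.4 CPM in wildtype and 40.3, 40.7 and 41.9 CPM in the severe hypomorph, without overlap (log2 fold change 0.26, adjusted p = 0.0041, edgeR). In *Chd8*+/- none was called by edgeR (1 at an unadjusted p under 0.05, 0 by DESeq2).

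Of 16 apical junction and polarity genes, whose proteins hold radial glia together at the ventricle, 1 rose and 1 fell in *Chd8* neo/neo, near the background of 3.71% higher and 4.45% lower calls. *Llgl1*, a polarity gene, rose (log2 fold change 0.23, adjusted p = 0.0178, edgeR), and *Ctnna2*, which encodes the neuronal alpha-catenin, fell (log2 fold change -0.37, adjusted p = 0.0411). Among the 16 genes the number called went from 2 to 0 with *Chd8*+/+ replicate 2 or *Chd8* neo/neo replicate 1 or 2 left out, and to 1 with *Chd8*+/- replicate 3, *Chd8*+/+ replicate 3 or *Chd8* neo/- replicate 1, 2 or 3 left out. In *Chd8* neo/- none of the 16 was called by edgeR (3 at an unadjusted p under 0.05, 0 by DESeq2), nor in *Chd8*+/- (1 at an unadjusted p under 0.05, 0 by DESeq2). Of 14 other SOX genes tested, 1 fell in the mild and 2 fell in the severe hypomorph (background of lower calls 4.45% and 5.99%). *Sox11*, a factor of immature neurons, fell in both (log2 fold change -0.20 and -0.19, adjusted p = 0.0475 and 0.0415). *Sox5*, a factor of deep-layer neurons, fell in *Chd8* neo/- (log2 fold change -0.21, adjusted p = 0.024). Among the 14 genes the number called in *Chd8* neo/neo went from 1 to 0 with *Chd8*+/- replicate 3, *Chd8*+/+ replicate 2 or 3, *Chd8* neo/- replicate 1, 2 or 3 or *Chd8* neo/neo replicate 1 or 2 left out, and to 2 with *Chd8*+/- replicate 2 or *Chd8*+/+ replicate 1 left out. That in *Chd8* neo/- went from 2 to 0 with *Chd8*+/+ replicate 2 or 3 or *Chd8* neo/- replicate 2 left out, and to 1 with *Chd8*+/- replicate 3, *Chd8*+/+ replicate 1 or *Chd8* neo/- replicate 1 or 3 left out. In *Chd8*+/- none of the 14 was called by edgeR (3 at an unadjusted p under 0.05, 0 by DESeq2). Among 7 dorsal telencephalon markers *Pax6* and *Dmrta2* (log2 fold change 0.38, adjusted p = 0.022) rose in *Chd8* neo/neo (background 3.71%) and none fell. Among the 7 genes the number called went from 2 to 0 with *Chd8*+/+ replicate 2 or *Chd8* neo/neo replicate 1 left out, and to 1 with *Chd8* neo/neo replicate 2 left out.

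**Figure D3:**
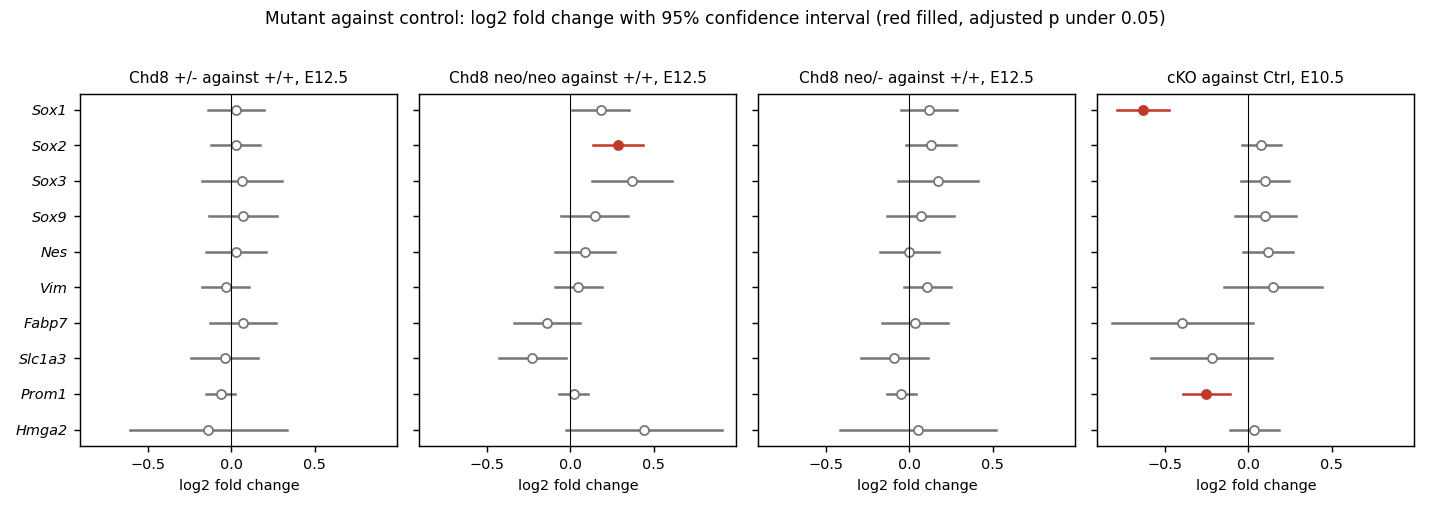
Log2 fold change with 95% confidence interval of each gene in the 3 E12.5 mutant genotypes against *Chd8*+/+ and in cKO against Ctrl at E10.5 (edgeR, n = 3 libraries per group; red filled points, adjusted p under 0.05 over all genes tested). *Sox2* in *Chd8* neo/neo and *Sox1* and *Prom1* in cKO were called, and *Hmga2* had the widest intervals at E12.5.

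At E10.5, *Sox1* and *Prom1* fell in cKO embryos and the other 8 genes did not pass the test. By edgeR 2 of 10 were called, against 11.4% of 18435 genes tested (lower, 5.7%), and by DESeq2 3. Calls over all genes under the other settings, DESeq2 among them, ranged from 1859 to 2722, against 2110 by edgeR as used here. *Sox1* was at 95.99, 108 and 101 CPM in Ctrl pools 1 to 3 and 60.8, 64.8 and 71.1 CPM in cKO pools 1 to 3. Each cKO pool lay below each Ctrl pool by a gap wider than the range of either group, and the level fell by 35.5% (log2 fold change -0.63, SE 0.0719, adjusted p = 0.000537, edgeR). The call held in all alternatives run, those without each pool in turn included. Cre in these embryos is driven by *Sox1* and is named in the labels of cKO embryos only, so that an effect of the *Sox1*-Cre allele on *Sox1* and an effect of *Chd8* loss cannot be told apart. *Prom1* was at 174, 149 and 162 CPM in Ctrl and 134, 135 and 138 CPM in cKO, again without overlap, and fell by 16.02% (log2 fold change -0.25, SE 0.0639, adjusted p = 0.0289, edgeR). That call was lost without any 1 of 5 pools, all but Ctrl pool 2 (adjusted p = 0.0539 to 0.125).

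None of the other 3 SOX genes was called by edgeR or DESeq2 in cKO, and none had an unadjusted p under 0.05. *Sox2* was at 205, 209 and 209 CPM in Ctrl and 222, 213 and 223 CPM in cKO, each cKO pool above each Ctrl pool, by a difference that did not pass the test (log2 fold change 0.079, SE 0.0527, adjusted p = 0.368, edgeR). *Sox3* was at 66.4, 62.9 and 58.8 CPM in Ctrl and 70.7, 66.7 and 64.1 CPM in cKO, with overlap. *Sox9* was at 80.02, 82.9 and 74.9 CPM in Ctrl and 88.8, 92.7 and 73.7 CPM in cKO, with overlap. The 95% confidence intervals of the log2 fold change were -0.037 to 0.19 for *Sox2*, -0.044 to 0.24 for *Sox3* and -0.082 to 0.29 for *Sox9*, so that a fall of the size measured for *Sox1* lay outside all 3.

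*Hmga2* was at 1251, 1349 and 1267 CPM in Ctrl and 1249, 1391 and 1326 CPM in cKO, with overlap (95% confidence interval -0.11 to 0.18). *Nes* was at 527, 471 and 515 CPM in Ctrl and 513, 569.8 and 561 CPM in cKO (interval -0.03 to 0.27). *Vim* was at 1069, 766 and 996 CPM in Ctrl and 953, 1005 and 1178 CPM in cKO (interval -0.15 to 0.44). Ctrl pool 2 was the lowest of the 6 pools in both filament genes. *Fabp7* was at 49.3, 29.6 and 38.1 CPM in Ctrl and 27.05, 29.6 and 32.3 CPM in cKO (log2 fold change -0.40, SE 0.178, adjusted p = 0.211, edgeR). The groups overlapped through Ctrl pool 2 alone. The fall was called by DESeq2 (log2 fold change -0.39, adjusted p = 0.0349), by edgeR with *Xist* as a covariate (log2 fold change -0.48, adjusted p = 0.0232) and by edgeR without that pool (log2 fold change -0.56, adjusted p = 0.012). *Slc1a3* was at 30.3, 28.3 and 36.9 CPM in Ctrl and 21.9, 27.2 and 32.96 CPM in cKO, with overlap (log2 fold change -0.22, SE 0.157, adjusted p = 0.417, edgeR). *Fabp7* and *Slc1a3* had the widest spread within groups of the 10 genes at this stage.

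**Figure D4:**
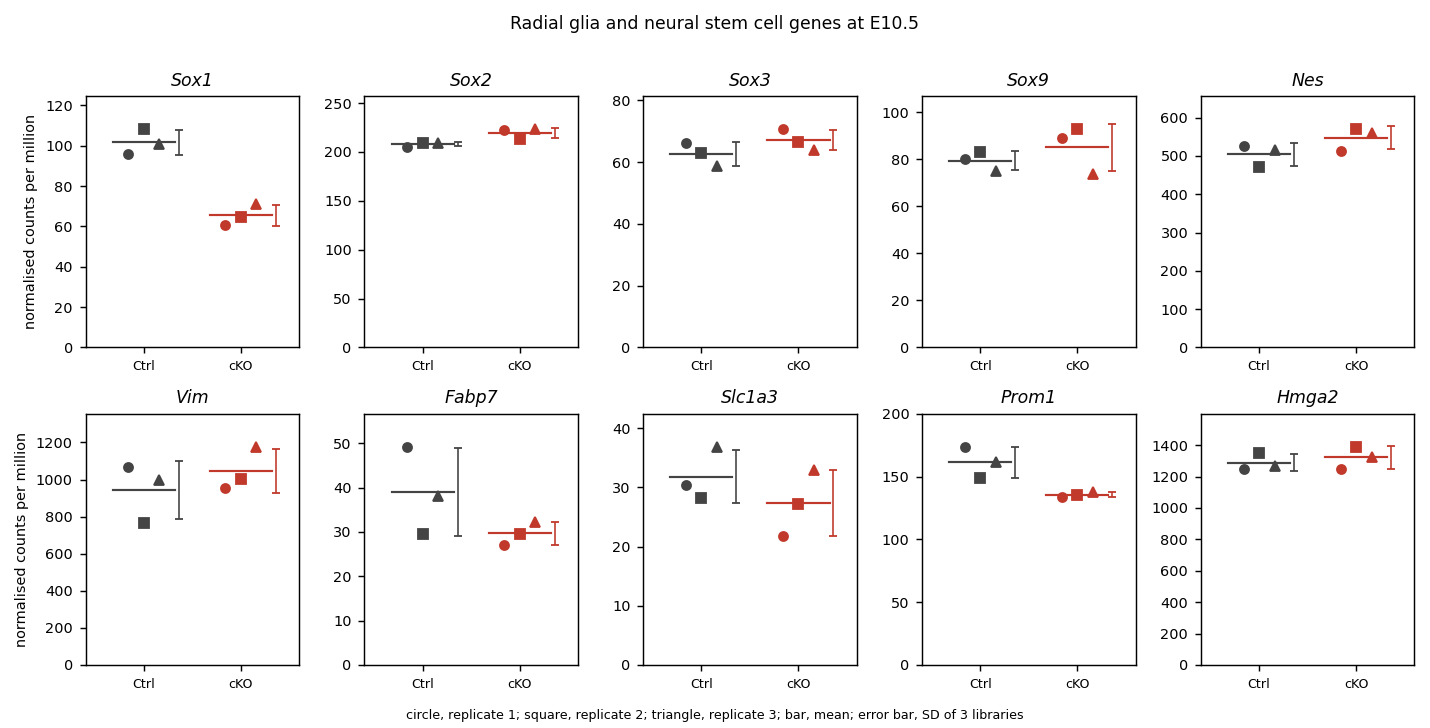
Normalised counts (CPM) of the 10 genes in each E10.5 pool (points, 3 pools of 2 embryos per group with their replicate number as the marker; bars, mean; error bars, SD; each axis starts at 0). *Sox1* and *Prom1* were lower in all cKO than in all Ctrl pools, and Ctrl pool 2 was the lowest pool for *Vim* and *Nes*.

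Of the 28 further radial glia genes, 1 rose and 2 fell in cKO, near the background of 5.75% higher and 5.7% lower calls (median log2 fold change -0.043, against -0.0019 over all genes tested). *Mfge8* rose, from 37.6, 37.8 and 43.5 CPM in Ctrl to 51.8, 53.2 and 62.2 CPM in cKO, without overlap (log2 fold change 0.49, adjusted p = 0.00552, edgeR). *Id4*, which encodes an inhibitor of basic helix-loop-helix factors, fell (log2 fold change -0.46, adjusted p = 0.0204), and so did *Dbi*, which encodes an acyl-CoA binding protein (log2 fold change -0.35, adjusted p = 0.0425). Among the 28 genes the number called went from 3 to 1 with Ctrl pool 3 or cKO pool 3 left out, and to 10 with Ctrl pool 2 left out. With each pool left out in turn, calls over all genes in cKO ranged from 538 to 2483, against 2110 with all. Of 16 apical junction and polarity genes 2 rose and none fell: *Pard3*, a polarity gene (log2 fold change 0.29, adjusted p = 0.0213), and *Ctnna1*, which encodes alpha-catenin (log2 fold change 0.19, adjusted p = 0.0419). Among the 16 genes the number called went from 2 to 0 with Ctrl pool 3 or cKO pool 2 or 3 left out, and to 1 with Ctrl pool 1 or cKO pool 1 left out. Of 11 early-stage genes 1 fell, *Hmgn2*, a nucleosome-binding protein gene (log2 fold change -0.26, adjusted p = 0.0475), and none rose. Between the control groups *Hmgn2* was not among the genes of this list that were lower at E12.5. Among the 11 genes the number called went from 1 to 0 with Ctrl pool 1 or 3 or cKO pool 1, 2 or 3 left out, and to 5 with Ctrl pool 2 left out. Of 14 other SOX genes none was called by edgeR (2 at an unadjusted p under 0.05, 1 by DESeq2).

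Markers of neighbouring tissue moved with the groups at E10.5. Of 10 mesenchyme and meninges markers 3 rose (background of higher calls 5.75%), and their summed level was 1020.5 to 1202 CPM in cKO against 822 to 908 CPM in Ctrl, without overlap. Of 6 midline and choroid plexus markers tested 2 rose, and the sum was 432 to 525 CPM in cKO against 328 to 379.99 CPM in Ctrl, without overlap. The number of mesenchyme and meninges markers called went from 3 to 1 with cKO pool 2 left out. That of midline and choroid plexus markers went from 2 to 1 with Ctrl pool 1 or cKO pool 1, 2 or 3 left out. Neuron markers overlapped (313 to 426 CPM in cKO and 271 to 477 CPM in Ctrl, 0 of 12 called by edgeR, 2 at an unadjusted p under 0.05, 0 by DESeq2). Their part in the differences of *Sox1* and *Prom1* was not tested.

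The widest differences of these 10 genes, those of *Fabp7*, *Slc1a3* and *Hmga2*, lay between the stages. All genes differed more there too. Their median absolute log2 fold change was 0.49, against 0.126 in *Chd8* neo/neo, 0.129 in *Chd8* neo/- and 0.157 in cKO. *Sox1*, *Sox2*, *Sox3* and *Prom1* each had a wider fitted difference in a mutant comparison than between the stages. Wildtype neocortex at E12.5 (*Chd8*+/+) was set against Ctrl vesicles at E10.5 in 1 fit of these 6 libraries, scaled together. Stage in this comparison cannot be told apart from the sequencing runs, the dissection, the pooling of embryos and the floxed alleles of the Ctrl pools, and the libraries are those used as controls above. By edgeR, 6 of 10 genes were higher at E12.5 and 2 lower, against 67.5% of 18580 genes called (33.7% higher and 33.8% lower), so that the calls alone do not set the 10 apart. *Fabp7* was at 48.98, 29.3 and 37.7 CPM at E10.5 and 221, 268 and 243 CPM at E12.5, a 6.30-fold rise (log2 fold change 2.66, SE 0.192, adjusted p = 2.36e-05, edgeR). *Slc1a3* was at 30.2, 27.9 and 36.5 CPM at E10.5 and 96.6, 107 and 106 CPM at E12.5, a 3.28-fold rise (log2 fold change 1.71, SE 0.0947, adjusted p = 2.31e-08, edgeR). *Hmga2* was at 1244, 1333 and 1254 CPM at E10.5 and 414, 341 and 452 CPM at E12.5, and fell by 68.5% (log2 fold change -1.67, SE 0.104, adjusted p = 4.6e-08, edgeR). For all 3 genes the gap between the stages was wider than the range within either.

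*Nes*, *Sox9* and *Sox1* were higher at E12.5 without overlap between the stages. *Nes* was at 524, 465 and 509 CPM at E10.5 and 823, 823 and 930.1 CPM at E12.5 (log2 fold change 0.78, SE 0.0834, adjusted p = 4.98e-06, edgeR). *Sox9* was at 79.5, 81.99 and 74.1 CPM at E10.5 and 124, 112 and 147 CPM at E12.5 (log2 fold change 0.70, SE 0.0911, adjusted p = 3.58e-05, edgeR). *Sox1* was at 95.4, 107 and 99.8 CPM at E10.5 and 135, 122 and 157 CPM at E12.5 (log2 fold change 0.45, SE 0.0867, adjusted p = 0.000629, edgeR). *Prom1* was lower at E12.5, also without overlap. It was at 173, 147 and 159.8 CPM at E10.5 and 132, 140.1 and 141 CPM at E12.5 (log2 fold change -0.22, SE 0.0679, adjusted p = 0.0128, edgeR), and the call was lost without *Chd8*+/+ replicate 1 (adjusted p = 0.0756) and with *Xist* as a covariate for sex (log2 fold change -0.18, adjusted p = 0.0576). *Vim* was at 1063, 758 and 986 CPM at E10.5 and 1059.7, 1205 and 1194 CPM at E12.5, higher but with overlap (log2 fold change 0.30, SE 0.118, adjusted p = 0.0392, edgeR). Its call was lost without Ctrl pool 2 (log2 fold change 0.18, adjusted p = 0.113) and without *Chd8*+/+ replicate 2 or 3 (adjusted p = 0.101 and 0.104).

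The other SOXB1 genes were not called between the stages. *Sox2* was at 204, 207 and 207 CPM at E10.5 and 235, 205 and 238 CPM at E12.5, with overlap (log2 fold change 0.14, SE 0.0676, adjusted p = 0.0953, 95% confidence interval -0.012 to 0.28, edgeR). *Sox3* was at 65.96, 62.2 and 58.2 CPM at E10.5 and 57.7, 49.8 and 65.3 CPM at E12.5, with overlap (log2 fold change -0.11, SE 0.0935, adjusted p = 0.326, 95% confidence interval -0.31 to 0.097, edgeR).

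**Figure D5:**
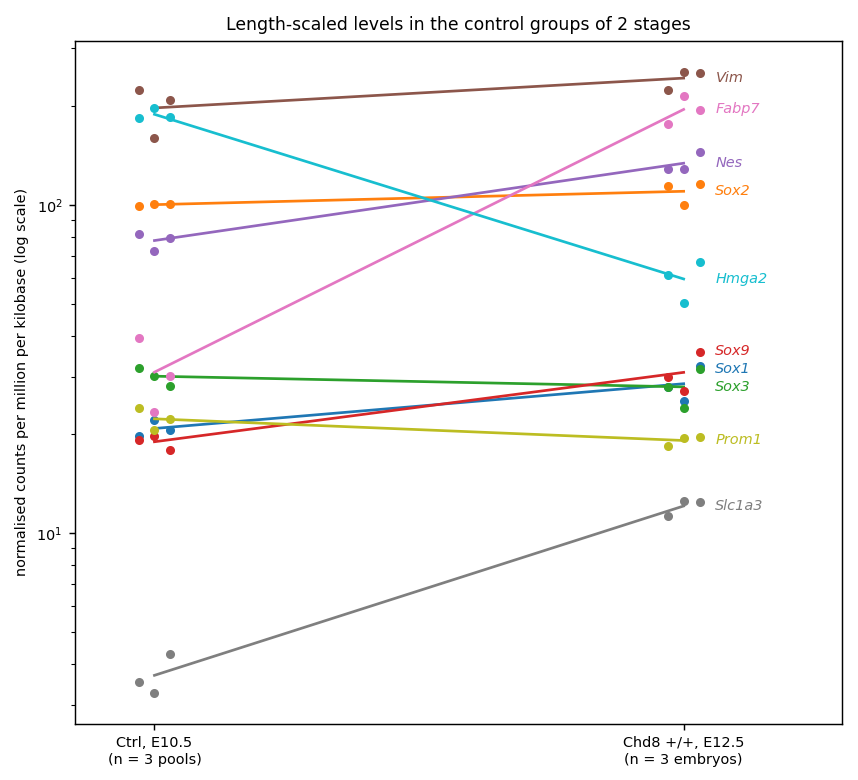
Normalised CPM per kilobase of the 10 genes in Ctrl at E10.5 and *Chd8*+/+ at E12.5, scaled together (points, libraries; lines join the means; log axis). The lines of *Fabp7* and *Hmga2* cross between the stages, and *Slc1a3* rises from the lowest level of the 10.

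Of the 28 further radial glia genes, 14 were higher at E12.5 and 6 lower, against 33.7% and 33.8% of all genes (median log2 fold change 0.21, against -0.008 over all genes tested). The 3 with the smallest adjusted p were *Ttyh1*, a membrane protein gene (log2 fold change 2.56, adjusted p = 6.94e-10, edgeR), *Ddah1*, an enzyme of methylarginine breakdown (log2 fold change 1.58, adjusted p = 7.54e-09), and *Ednrb*, an endothelin receptor (log2 fold change 3.06, adjusted p = 3.44e-07). Of the 11 early-stage genes, 9 were lower and 1 higher (median -0.89). *Dis3l2* and *Hmgn2* were not lower. *Dis3l2* was at 45.3, 38.1 and 44.5 CPM at E10.5 and 50.3, 55.4 and 52.9 CPM at E12.5. *Hmgn2* was at 690, 587 and 579 CPM at E10.5 and 677, 692 and 705 CPM at E12.5. *Lin28a* was at 93.2, 144 and 102 CPM at E10.5 and 2.53, 1.28 and 2.31 CPM at E12.5 (log2 fold change -5.77, adjusted p = 7.48e-06, edgeR). *Lin28b* was at 171, 238 and 183 CPM at E10.5 and 28.4, 25.9 and 26.7 CPM at E12.5 (log2 fold change -2.87, adjusted p = 2.37e-08, edgeR). *Trim71* was at 48.8, 84.6 and 63.3 CPM at E10.5 and 4.39, 2.80 and 3.53 CPM at E12.5 (log2 fold change -4.19, adjusted p = 1.14e-05, edgeR). Ctrl pool 2, low in *Vim* and *Fabp7*, was the highest pool in *Lin28a*, *Lin28b* and *Trim71*.

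Of 14 other SOX genes 8 were higher at E12.5 and 1 lower, among them *Sox4* (log2 fold change 1.52, adjusted p = 2.25e-09, edgeR) and *Sox11* (log2 fold change 1.74, adjusted p = 3.5e-09), factors of newborn neurons. Of 16 apical junction and polarity genes 5 were higher and 7 lower. Over all genes tested, 33.7% were higher and 33.8% lower, which is the background for each list given here. All 12 neuron markers were higher at E12.5, with a summed level of 4257 to 5122 CPM against 268 to 474 CPM, and all 5 surface ectoderm markers tested were lower. Their part in the stage differences of the 10 genes was not tested.

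The stretches just upstream of *Fabp7*, *Slc1a3* and *Hmga2*, the 3 genes with the widest stage differences, are shown 5′ to 3′ on the strand of the gene (RefSeq promoters, GRCm38.p6, bases that precede both the RefSeq and the counted gene model). Capitals mark 5 short motifs on either strand, and none of the marked motifs overlap.
*Fabp7*, chr10:57784673-57784880, + strand: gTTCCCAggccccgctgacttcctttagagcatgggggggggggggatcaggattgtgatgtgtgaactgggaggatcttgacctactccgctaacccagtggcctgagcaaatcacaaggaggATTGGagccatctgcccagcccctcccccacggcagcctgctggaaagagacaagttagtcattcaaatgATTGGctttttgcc
*Slc1a3*, chr15:8710808-8711057, - strand: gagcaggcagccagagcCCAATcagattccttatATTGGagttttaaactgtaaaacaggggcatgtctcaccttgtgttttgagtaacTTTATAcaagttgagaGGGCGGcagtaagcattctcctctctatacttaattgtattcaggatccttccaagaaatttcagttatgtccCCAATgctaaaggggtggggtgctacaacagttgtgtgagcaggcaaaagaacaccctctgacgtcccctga
*Hmga2*, chr10:120476470-120476719, - strand: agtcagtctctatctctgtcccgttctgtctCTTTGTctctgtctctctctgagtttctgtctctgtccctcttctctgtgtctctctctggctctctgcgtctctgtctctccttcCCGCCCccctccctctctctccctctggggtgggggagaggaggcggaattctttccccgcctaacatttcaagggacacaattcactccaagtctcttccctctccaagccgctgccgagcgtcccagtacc
The CCAAT box stood 2 times upstream of *Fabp7*, 3 times upstream of *Slc1a3* and not upstream of *Hmga2*, and 33.8% of 32851 RefSeq promoters held it in the 250 bases before the start. The letters TATAAA of the TATA box stood upstream of *Slc1a3* only, on the other strand, against 12.4% of promoters. The GC box GGGCGG stood upstream of *Slc1a3* and *Hmga2*, against 32.7%. The letters ACAAAG of SOX motifs stood upstream of *Hmga2*, against 16.5%. The letters TGGGAA of the RBPJ motif stood upstream of *Fabp7*, against 21.6%. These are matches of letters only.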

How the data were processed

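RNA-seq was done on the E12.5 neocortex of 12 embryos and on 6 pools of E10.5 telencephalic vesicles, with strand-marking (dUTP) libraries of poly(A) RNA, each sequenced in 2 runs. The authors trimmed reads with Trim Galore 0.4.1, checked them with FastQC 0.11.2, aligned them with TopHat2 2.1.0 to GRCm38 and counted them per gene with featureCounts 1.5.0. They deposited raw read counts per run and gene, not normalized, in 1 table per stage with 46603 genes each. Per the file headers the E12.5 counts used Ensembl release 82 without regard to strand, and the strand setting of the E10.5 counts is not given in the sources used here. In the E12.5 counts, reads over bases shared by a gene and an antisense partner were therefore not told apart by strand.

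Here the 2 runs of a library were summed (36 runs, 18 libraries, 6 groups of 3). Genes passing filterByExpr were scaled by TMM and tested with edgeR 4.0.16 (quasi-likelihood, robust) in R 4.3.3, with Benjamini-Hochberg adjustment over all genes tested and a threshold of 0.05. The 4 E12.5 genotypes shared 1 fit, E10.5 had its own, and a further fit joined *Chd8*+/+ and Ctrl. CPM are TMM-scaled counts. The study used DESeq2, run here as an alternative (1.42.0). The fits were checked on simulated counts for the direction and size of planted changes, with no limit set on false calls. The planted changes were larger than that of *Sox2* in *Chd8* neo/neo. Other alternatives were another scaling (RLE), no filter, *Xist* as a covariate, the first run alone, only 2 groups in the fit, the replicate number as a block and leaving out each library. A fit of the 8 E12.5 libraries with low *Xist* was chosen after seeing the data.

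Same-numbered libraries were checked for shared deviations from their group means. Each pair correlated above 0.1 only for *Chd8* neo/neo with *Chd8*+/- (r = 0.108, 0.195 and 0.199), where the blocked value is given. Depth ranged from 38774591 to 68488879 counts, so that the spread between 3 libraries, more than counting error, set the precision for the 10 genes. All 10 genes are named in every comparison, with *Chd8*. From each of the 14 other lists up to 3 called genes with the smallest adjusted p, or markers named for a level beside a result, are given. *Lin28a*, *Lin28b*, *Trim71* and *Igf2bp2* at E12.5, *Dis3l2* and *Hmgn2* between the stages and Ctrl pool 2 were singled out after their values were seen. The 10 genes and the lists were chosen with earlier results of these data known.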

Additional observations from a re-analysis of the deposited data

Results flagged for a closer look

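*Sox2* differed between the mild hypomorph and the heterozygote, being higher in *Chd8* neo/neo than in *Chd8*+/- (log2 fold change 0.26, adjusted p = 0.0457 by edgeR over all genes tested, higher in 3 of 3 libraries). It stands here because the effects of 2 genotypes against the same wildtype differed in a direct test. That call was lost with the replicate number as a block (adjusted p = 0.0722) and with *Xist* as a covariate (log2 fold change 0.22, adjusted p = 0.0887). It was also lost with the first run alone (adjusted p = 0.0685), with only both groups in the fit (adjusted p = 0.0814) and without any 1 of 10 of the 12 libraries (all edgeR).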

How the results depend on the processing

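Of the fitted differences of the 10 genes under other settings, 517 kept their direction and their side of the threshold, 6 gained a call, 9 lost one and 10 changed direction, and with each library left out the numbers were 776, 10, 22 and 32. No difference that was called changed direction. The number of the 10 genes called in *Chd8* neo/neo against *Chd8*+/+ (1) was 2 with DESeq2, 0 with only both groups in the fit and 0 in the libraries with low *Xist*. Against *Chd8*+/- (1) it was 3 with DESeq2 and 0 with *Xist* as a covariate, with the first run alone, with only both groups, with low-*Xist* libraries alone and with the replicate block. In *Chd8* neo/- against *Chd8*+/- (0) it was 1, *Vim*, with only both groups. With each library left out the counts ranged from 0 to 3 in *Chd8* neo/neo against *Chd8*+/+, from 0 to 4 against *Chd8*+/- and from 1 to 3 in cKO. The same removals gave 435 to 2605, 23 to 2100 and 538 to 2483 calls over all genes. Why the calls moved was not tested. In the low-*Xist* libraries *Chd8* neo/neo is a single library, assumed to vary like the other groups.

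The direction reversed for uncalled differences near 0. That of *Nes* in *Chd8* neo/- against *Chd8*+/+ was -0.0011 with DESeq2, -0.00054 with RLE scaling, -0.0078 without the filter and -0.0014 with the replicate block. With *Xist* as a covariate the log2 fold change in *Chd8* neo/- against *Chd8*+/- was 0.0014 for *Nes* and 0.046 for *Sox9*, and against *Chd8* neo/neo 0.037 for *Sox1* and 0.032 for *Sox9*. With the first run alone it was -0.014 for *Prom1* in *Chd8* neo/neo against *Chd8*+/+ and 0.020 for *Sox9* in *Chd8* neo/- against *Chd8*+/-. With each library left out, the ranges that cross 0 were, in *Chd8*+/- against *Chd8*+/+, -0.055 to 0.088 for *Nes*, -0.079 to 0.022 for *Slc1a3*, -0.055 to 0.13 for *Sox1*, -0.038 to 0.065 for *Sox2*, -0.028 to 0.17 for *Sox3* and -0.014 to 0.18 for *Sox9*. In *Chd8* neo/- against *Chd8*+/+ they were -0.028 to 0.11 for *Fabp7*, -0.055 to 0.14 for *Hmga2*, -0.029 to 0.062 for *Nes* and -0.015 to 0.18 for *Sox9*, and against *Chd8*+/- -0.11 to 0.013 for *Fabp7*, -0.085 to 0.052 for *Nes*, -0.011 to 0.19 for *Sox3* and -0.053 to 0.051 for *Sox9*. In *Chd8* neo/neo they were -0.017 to 0.056 for *Prom1* and -0.0093 to 0.12 for *Vim* against *Chd8*+/+, and -0.0099 to 0.14 for *Nes* against *Chd8*+/-. They were -0.013 to 0.11 for *Vim* in *Chd8* neo/- against *Chd8* neo/neo and -0.00059 to 0.076 for *Hmga2* in cKO.

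The replicate block changed no call of the 10 genes but those of *Sox2* in *Chd8* neo/neo against *Chd8*+/- and of *Vim* between the stages, whose numbers did not pair the libraries (adjusted p = 0.0534). Over all genes the block moved the calls from 994 to 572 in *Chd8* neo/neo against *Chd8*+/- and from 4 to 2 in *Chd8*+/- against *Chd8*+/+, where the numbers did not pair them either. Counts over all genes moved by more than 1.5 times in other settings too: with DESeq2 to 15 in *Chd8*+/- (from 4), 1788 in *Chd8* neo/neo (from 994) and 1689 in *Chd8* neo/- (from 1021) against *Chd8*+/-, and 27 in *Chd8* neo/- against *Chd8* neo/neo (from 3), where it was 9 without the filter and 1 with only both groups. With only both groups it was 430 in *Chd8* neo/neo against *Chd8*+/+ (from 1534), 42 against *Chd8*+/- and 1 in *Chd8*+/-, and with *Xist* as a covariate 1004 and 325 in *Chd8* neo/neo. The 10 genes had 1296 to 89284 counts in a library, and neither the depth nor the number of libraries was varied beyond the settings above.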

Other observations

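Markers of cells that sit beside radial glia were counted in the same fits. Of 7 erythroid markers, 4 rose, against 5.48% of all genes, and none fell in *Chd8* neo/- (median log2 fold change 0.94, against 0.0011 over all genes tested), among them the embryonic globin gene *Hbb-bh1* (log2 fold change 1.61, adjusted p = 0.0425, edgeR). The summed erythroid level was 4427 to 7077 CPM in *Chd8* neo/- and 3045 to 3756 CPM in *Chd8*+/+. The number of erythroid markers called went from 4 to 0 with *Chd8*+/- replicate 3, *Chd8*+/+ replicate 1, 2 or 3, *Chd8* neo/- replicate 2 or 3 or *Chd8* neo/neo replicate 2 left out, and to 1 with *Chd8* neo/neo replicate 1 left out. It was also 0 with *Xist* as a covariate, without the filter and with the replicate block, and 1 with the first run alone. Of 9 endothelial and mural markers 1 fell in *Chd8* neo/neo, *Kdr*, a receptor of vascular endothelial growth factor (log2 fold change -0.17, adjusted p = 0.0236), and 2 rose in cKO (background of lower calls in *Chd8* neo/neo 4.45%, of higher calls in cKO 5.75%). The number called in *Chd8* neo/neo went from 1 to 0 with *Chd8*+/+ replicate 2 or 3 or *Chd8* neo/neo replicate 1 or 2 left out, and to 2 with *Chd8* neo/neo replicate 3 left out. That in cKO went from 2 to 0 with Ctrl pool 3 or cKO pool 2 or 3 left out, and to 1 with Ctrl pool 1 or cKO pool 1 left out. Of 8 intermediate progenitor markers 1 rose in *Chd8* neo/neo (background 3.71%), *Gadd45g*, a growth arrest gene of committed progenitors (log2 fold change 0.18, adjusted p = 0.0479), and none was called in cKO by edgeR (1 at an unadjusted p under 0.05, 1 by DESeq2). Between the stages 7 of 8 were higher at E12.5 (background of higher calls 33.7%). The call of *Gadd45g* was lost without any 1 of the 12 libraries.

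Of 7 ventral telencephalon markers 1 fell in cKO (background 5.7%), *Gsx2*, a homeobox gene of ganglionic eminence progenitors (log2 fold change -1.43, adjusted p = 0.0491, edgeR), and all 7 were higher at E12.5 than at E10.5 (background of higher calls 33.7%). The number called in cKO went from 1 to 0 with Ctrl pool 1 or 3 or cKO pool 1, 2 or 3 left out, and to 3 with Ctrl pool 2 left out. Of 7 microglia and macrophage markers 1 rose in cKO (background 5.75%), *Cx3cr1*, a chemokine receptor gene (log2 fold change 0.48, adjusted p = 0.0162). The number called went from 1 to 0 with cKO pool 2 or 3 left out.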
